A study of Homo sapiens with 10 samples.

Results

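The genes of 9 ETS family transcription factors, ELF3, EHF, ELF5, ETS1, ETS2, ETV4, ETV5, ETV6 and FLI1, carried 68 of the 52981 sites at which ZEB1 signal was counted in this series. A site belonged to a gene when its midpoint lay inside the gene's RefSeq span on GRCh38 or within 20 kb of either end. ZEB1 was mapped by CUT&RUN, in which an antibody directs a nuclease to the DNA a protein occupies, in human breast cancer cells labelled MDA and Er-/Pr-/Her2-. Cells were given the microtubule-binding cancer drug eribulin at 300 nM for 24, 48 or 72 h and were compared with untreated control cells of no stated time. All were grown in DMEM with 10% FBS. The treated libraries carry the line label MDA_ERI and the controls MDA_Parental, so the line label and the treatment cannot be told apart, and all 3 exposures share the same control. Each condition had 2 ZEB1 libraries, and 2 IgG libraries of untreated cells were not analysed here.

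ETS factors share a DNA-binding domain that reads a GGAA core, and its members divide labour between cell states. ELF3, EHF and ELF5 are known as epithelial factors, ELF3 and EHF being linked to epithelial identity in many glands and ELF5 to the secretory lineage of the breast. ETS1, ETS2 and the PEA3 group genes ETV4 and ETV5 act downstream of RAS and ERK signalling and are linked to invasion and mesenchymal gene expression. ETV6 is a repressor with a pointed domain that polymerises. FLI1 is a factor of blood and endothelial cells. ZEB1 is a zinc finger repressor that binds the E-box CACCTG and silences epithelial genes during the epithelial-mesenchymal transition, so ZEB1 signal at these genes bears on both sides of that switch. The files hold ZEB1 occupancy only, and no expression of any of these genes was measured.

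Control libraries held 3561455 and 3146228 counts in sites, 24 h libraries 1886419 and 1799143, 48 h libraries 1346179 and 1380070, and 72 h libraries 1207987 and 1130706. At the member sites with 20 or more counts, the 2 libraries of a condition agreed within sampling noise. Chi-square over degrees of freedom, about 1 for sampling alone, came to 1.02 over 65 such sites in control, 1.02 over 60 at 24 h, 0.815 over 50 at 48 h and 0.887 over 47 at 72 h. Nothing in the labels says that they came from separate cultures, so each condition was counted as 1 sample. The p-values therefore compare libraries, not conditions, and the 95% intervals cover counting error only. Levels are CPM, counts scaled to each library's total of counts in the tested sites, with TMM factors. This sets the typical site equal in all libraries and cannot show a loss or gain common to all sites. A second scaling, by the background level of each peak list, put the median of all tested sites at -0.86, -1.32 and -1.46 (log2) at 24, 48 and 72 h, against 0.02, -0.01 and 0.00 on the TMM scale. On the TMM scale a change is therefore relative to the typical ZEB1 site. The background levels were 108%, 100.8% and 95.2% of control, so the second scaling comes close to comparing the counts as they stand. A site "rose" or "fell" where the Benjamini-Hochberg adjusted p of edgeR's quasi-likelihood test was under 0.05, and was "called" where the change was also at least 2-fold.

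The promoters show where ZEB1's E-box could lie relative to the signal. RefSeq promoters of GRCh38.p14, each 250 bases before to 50 after a transcription start, matched 5 of the 9 genes. ELF3 (chr1:202010337-202010636, plus strand) is shown because its strongest ZEB1 site covered all 300 bases. ETS2 (chr21:38804933-38805232, plus strand) is shown because ETS2 site 5 covered 280 bases of it, and EHF (chr11:34624007-34624306, plus strand) because EHF site 1 covered 149. Capitals mark CACCTG, which was searched on both strands, its other strand being CAGGTG.
ELF3 promoter: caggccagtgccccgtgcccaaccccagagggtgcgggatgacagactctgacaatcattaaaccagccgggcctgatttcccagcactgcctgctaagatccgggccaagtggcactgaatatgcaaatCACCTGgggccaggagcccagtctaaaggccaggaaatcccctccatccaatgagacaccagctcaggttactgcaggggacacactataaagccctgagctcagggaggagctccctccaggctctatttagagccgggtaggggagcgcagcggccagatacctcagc
ETS2 promoter: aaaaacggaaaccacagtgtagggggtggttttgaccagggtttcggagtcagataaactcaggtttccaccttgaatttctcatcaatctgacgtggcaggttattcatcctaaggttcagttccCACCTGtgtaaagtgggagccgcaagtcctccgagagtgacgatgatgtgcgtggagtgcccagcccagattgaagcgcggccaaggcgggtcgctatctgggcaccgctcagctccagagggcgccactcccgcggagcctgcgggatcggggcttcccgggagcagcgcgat
EHF promoter: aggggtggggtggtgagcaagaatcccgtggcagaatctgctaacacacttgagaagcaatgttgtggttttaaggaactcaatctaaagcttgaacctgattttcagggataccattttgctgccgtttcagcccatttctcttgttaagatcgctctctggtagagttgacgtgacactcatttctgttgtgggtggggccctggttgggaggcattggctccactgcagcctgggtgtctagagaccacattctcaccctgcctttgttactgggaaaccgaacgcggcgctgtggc
The hexamer began 120 bases before the start in ELF3 and 124 bases before it in ETS2. It was in no position of the EHF window shown. ELF5 (chr11:34511675-34511974, minus strand) held 1 CACCTG that began at position 2, counting the start base as 1, where no ZEB1 site lay. Another EHF window, another ETS2 window and the ETV6 window had none. Of all 35116 RefSeq promoters of this length, 20.6% hold the hexamer on either strand. The AP-1 motif TGANTCA, present in 7.71% of all promoters, and the ETS motif CCGGAA, present in 17.2%, were in none of these 7 windows.

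ZEB1 signal moved in both directions over these genes. Of the 68 sites, 64 passed the filter on low counts. The 4 sites below it were ELF5 site 1, ETV4 site 1, ETV6 site 7 and FLI1 site 9. Some of the 64 passed it only through treated libraries, which favoured rises there, and some only through control, which favoured falls. At 24 h, 12 sites were called lower (18.8% of those tested) and 10 higher (15.6%), against 13.5% lower and 14.8% higher over all 46436 tested sites of the series. At 48 h, 8 were called lower and 7 higher, beside 7.55% and 10.5% of all sites, and at 72 h, 13 lower and 8 higher, beside 8.55% and 12.2%. In percent of the 64 these were 12.5% lower and 10.9% higher at 48 h, and 20.3% and 12.5% at 72 h. The shares of higher calls were near those of all sites at every time, and the share of lower calls stood furthest from it at 72 h. Without the 2-fold minimum, 21 sites fell and 20 rose at 24 h, beside 26.8% and 28.0% of all sites. At 48 h 23 fell and 11 rose, beside 16.9% and 16.8%, and at 72 h 24 fell and 11 rose, beside 17.0% and 18.9%. The median log2 fold change of the 64 sites was -0.01, -0.32 and -0.24. The background scaling lowers every log2 fold change of a time against control by nearly the same amount. Every lower call therefore stayed lower by construction, which is no check of these calls, and every higher call shrank. Of the higher calls, 10 of 10 stayed above control at 24 h, 4 of 7 at 48 h and 4 of 8 at 72 h, and only 2, 0 and 1 of them were still called.

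**Figure D1:**
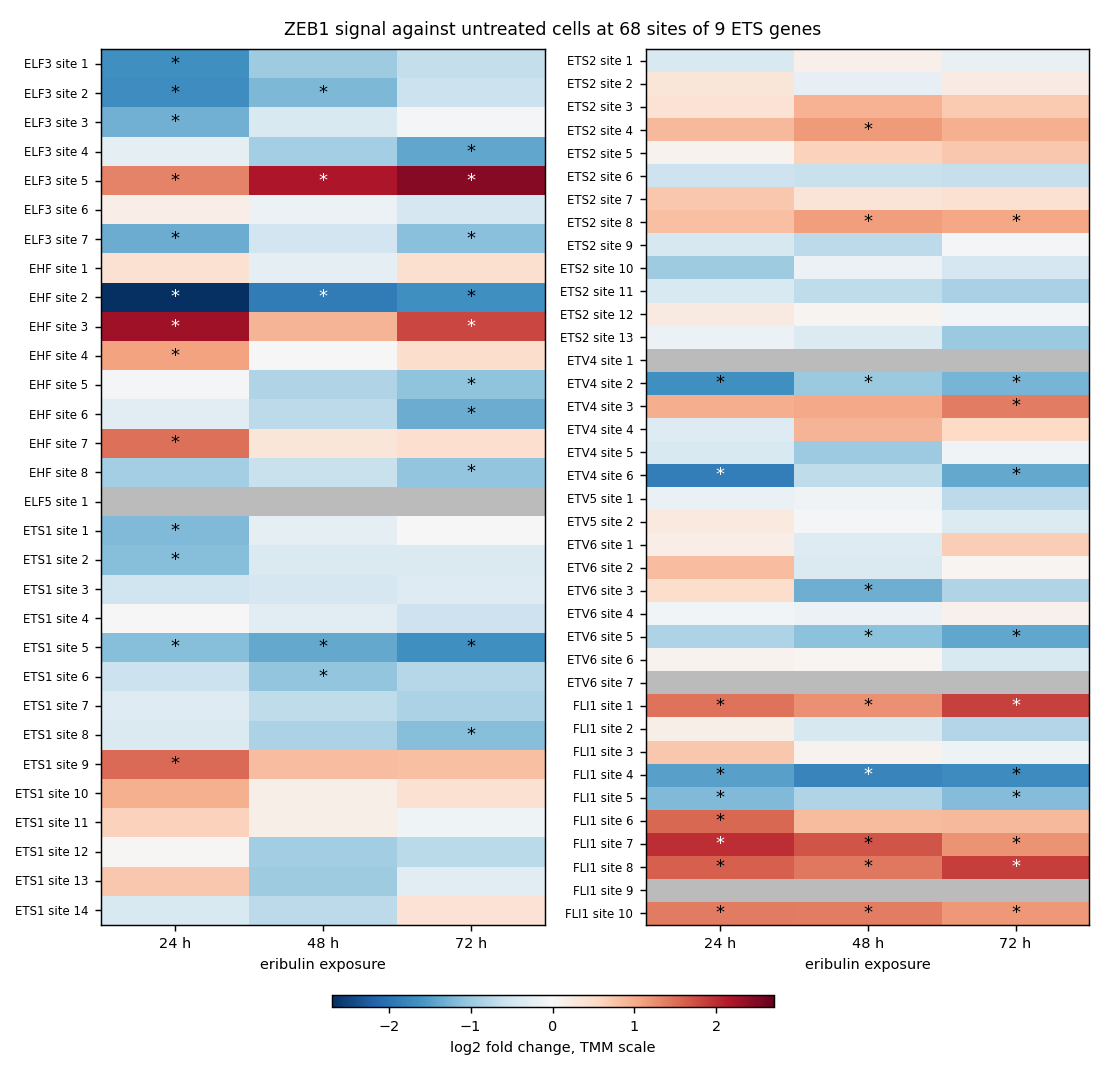
Log2 fold change of ZEB1 signal against untreated cells (TMM scale) at the 68 sites, numbered by position along each gene's region, after 24, 48 and 72 h of eribulin. Asterisks mark called sites and grey rows the 4 sites below the filter. The darkest blue is EHF site 2 at 24 h (-2.69) and the darkest red ELF3 site 5 at 72 h (2.46).

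ZEB1 signal at the ELF3 promoter was below control at each time, and nearest to it at 72 h. ELF3 encodes an activator of epithelial genes. The midpoints of its 7 sites all lay outside the gene, spread from 10.8 kb before the start to 17.8 kb past the gene's far end. The strongest was ELF3 site 2, chr1:202009666-202010797, which covered the promoter printed above and its CACCTG. It held 48.1% of the gene's site counts in control.
ELF3 site 2 had 125 and 126 CPM in the control libraries, 30.8 and 47.95 CPM at 24 h, 54.9 and 52.9 CPM at 48 h and 79.6 and 88.8 CPM at 72 h. Every treated library lay below both controls, the lowest being at 24 h and the nearest to control at 72 h. The log2 fold change was -1.68 at 24 h (95% interval -1.94 to -1.43; edgeR adjusted p = 6.32e-40), -1.22 at 48 h and -0.58 at 72 h. The change at 72 h was under 2-fold. Between 48 and 72 h this site gained 0.64 (log2), which passed the test (edgeR adjusted p = 0.00323). This step did not pass with DESeq2 (adjusted p = 0.108), with an assumed coefficient of variation of 0.2 (0.705), without the 48 h library 2 (0.0739) or without the 72 h library 2 (0.124). On the background scaling the changes against control were -2.56, -2.54 and -2.04.

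Further ELF3 sites, named after their values were seen, fell with the promoter at 24 h. ELF3 site 1, which lies 10.8 kb before the start and inside the neighbouring gene RNPEP, had a log2 fold change of -1.67. ELF3 site 3, 1.4 kb past the gene's end, was at -1.29, and ELF3 site 7, 17.8 kb past it, at -1.35. At 72 h site 3 had 29.96 CPM, against 30.99 CPM in control (pooled libraries), but on the background scaling it was still below control, at -1.51. Site 7 was still at 24.1 CPM at 72 h, against 52.9 CPM in control. Its 72 h call rested on the 72 h library 1, since without it the log2 fold change was -0.93 in place of -1.13.

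ELF3 site 5 went the other way and rose at every time. This 100-base site, chr1:202023186-202023285, lies 6.1 kb past the gene's end. It had 2.61 and 2.31 CPM in the control libraries, 3.08 and 9.70 CPM at 24 h, 11.6 and 11.3 CPM at 48 h and 9.52 and 18.5 CPM at 72 h. All treated libraries lay above both controls, the 24 h library 1 only just. The site passed the filter on low counts through treated libraries only. The log2 fold change was 2.19 at 48 h (interval 1.29 to 3.19; edgeR adjusted p = 4.13e-06) and 2.46 at 72 h. At 24 h it was 1.33, but 0.29 without the 24 h library 2 and 1.96 without the 24 h library 1. With the background scaling the rises were 0.47, 0.89 and 1.01. ELF3 site 4, only 0.8 kb away, fell at 48 and 72 h, to 4.92 CPM at 72 h, against 13.1 CPM in control. Its 72 h log2 fold change was -1.40, and -1.11 without the 72 h library 2, where the call was lost.

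EHF showed opposite changes at sites a few kilobases apart. EHF encodes a factor close to ELF3 that keeps epithelial genes on, and 7 of its 8 sites lay inside the gene. EHF site 2, chr11:34640184-34640579, 7.8 kb after the nearest annotated start, had 23.2 and 25.1 CPM in the control libraries, 4.11 and 3.23 CPM at 24 h, 4.63 and 8.31 CPM at 48 h and 10.4 and 4.63 CPM at 72 h. Treated and control libraries did not overlap at any time. At 24 h the log2 fold change was -2.69 (interval -3.61 to -1.92; edgeR adjusted p = 8.62e-16), the largest fall of any of the 64 sites at any time, followed by -1.88 at 48 h and -1.65 at 72 h. Without the 72 h library 1 the 72 h value was -2.36.

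EHF site 3, chr11:34644782-34644975, 4.5 kb further into the gene, was low in control and rose. This site passed the filter on low counts through treated libraries only, so a fall there could hardly have been called. It had 2.03 and 1.98 CPM in the control libraries, 8.72 and 11.3 CPM at 24 h, 2.32 and 5.29 CPM at 48 h and 8.65 and 5.55 CPM at 72 h. Against control it was at 2.28 (log2) at 24 h, 0.91 at 48 h, where it did not pass the test, and 1.80 at 72 h. The 72 h call was lost without the 72 h library 1, at 1.44. On the background scaling the 24 h rise was 1.42 and remained called, while the 48 h value turned to -0.38 and the 72 h value was 0.36, no longer called. EHF site 4, 0.3 kb beyond it, was called higher at 24 h at 1.09, but not without the control library 1 (0.91) or the 24 h library 1 (0.86). This site, too, passed the filter on low counts through treated libraries only.

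The strongest EHF site fell later. EHF site 5, chr11:34653926-34654363, lies 21.6 kb after the nearest annotated start, which is not that of the EHF promoter printed above. It had 75.3 and 68.3 CPM in the control libraries, 64.7 and 77.04 CPM at 24 h, 46.4 and 36.2 CPM at 48 h and 37.2 and 30.5 CPM at 72 h. Libraries of 24 h overlapped with the controls, and those of 48 and 72 h lay below them. In log2 terms the changes were -0.03, -0.80 and -1.08, and the 72 h value was -0.95 without the 72 h library 2, under the 2-fold minimum. EHF site 6, 0.9 kb away, had -0.27, -0.72 and -1.35, of which the 24 h value did not pass the test. EHF site 7, a further 0.5 kb on, passed the test at 24 h only, with 23.9 CPM, against 8.48 CPM in control. EHF site 8, past the gene's end, was at -0.92, -0.60 and -1.06, and its 72 h call was lost without the control library 2 (-0.99) or the 72 h library 1 (-0.98).

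At the EHF promoter itself the signal was low. EHF site 1, which overlaps the promoter printed above, had 7.24 and 7.25 CPM in the control libraries, 7.18 and 12.4 CPM at 24 h, 3.86 and 8.31 CPM at 48 h and 12.98 and 6.48 CPM at 72 h. Its log2 fold changes of 0.42, -0.24 and 0.44 did not pass the test. The largest share of the gene's site counts in control, 37.8%, was at EHF site 5 inside the gene, where ELF3 had its largest share at the promoter.

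ELF5, the breast secretory factor, had 1 site, ELF5 site 1, chr11:34501636-34501746, inside the gene and 10.0 kb after the start. It had 22 and 16 counts in the control libraries, 4 and 4 counts at 24 h, 1 and 2 counts at 48 h, and 2 and 0 counts at 72 h. The level was thus low throughout and lowest in the treated libraries. It was below the filter and had no test. The ratio of pooled CPM to control was 0.359 (exact 95% interval 0.145 to 0.781) at 24 h, 0.196 (0.0386 to 0.616) at 48 h and 0.153 (0.0178 to 0.591) at 72 h. These ratios are on the TMM scale and cover counting error only. A peak was listed here in the deposited control list and in none of the others.

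**Figure D2:**
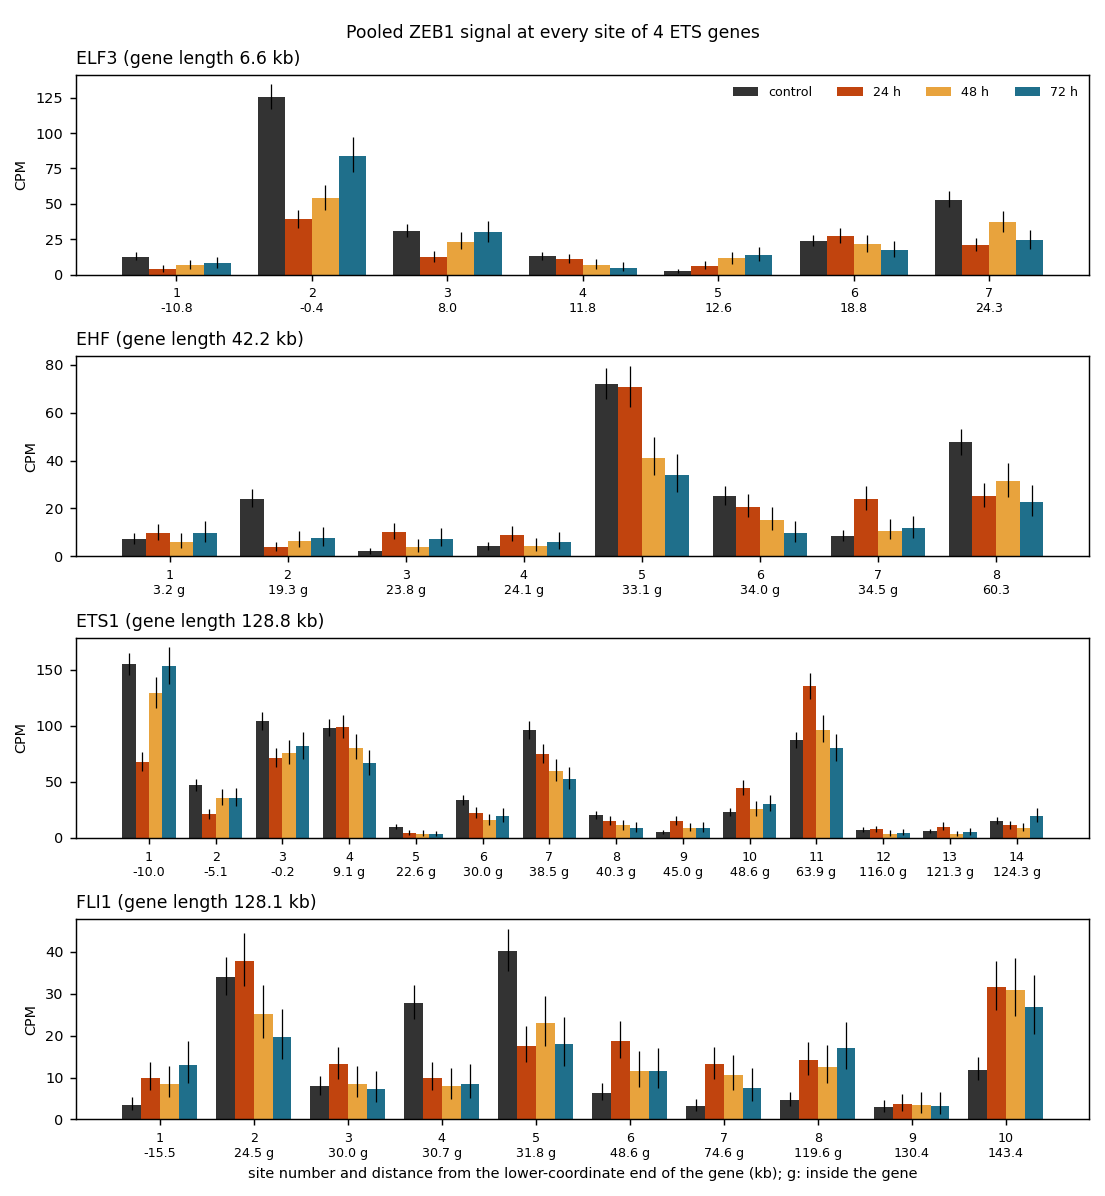
Pooled ZEB1 signal (CPM, linear axis from 0) at every site of ELF3, EHF, ETS1 and FLI1 in control and after 24, 48 and 72 h of eribulin. Each site's number and its distance in kb from the lower-coordinate end of the gene stand under its bars, and g marks sites inside the gene. Error bars are exact 95% intervals of the pooled counts. EHF site 2 fell to 3.68 CPM at 24 h, against 24.1 CPM in control, next to EHF site 3, which rose to 9.99 CPM at 24 h, against 2.01 CPM in control.

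The epithelial genes and the ETS1, ETS2 and ETV genes both held lower and higher sites. Among the 15 tested sites of ELF3 and EHF, 5 were called lower and 4 higher at 24 h, 2 lower and 1 higher at 48 h, and 6 lower and 2 higher at 72 h. Among the 40 tested sites of ETS1, ETS2, ETV4, ETV5 and ETV6, 5 were called lower and 1 higher at 24 h, and 5 lower and 2 higher at both 48 and 72 h. In percent, lower calls made up 33.3%, 13.3% and 40.0% of the epithelial sites at 24, 48 and 72 h, and 12.5% of the ETS and ETV sites at each time, beside 13.5%, 7.55% and 8.55% of all sites. Higher calls made up 26.7%, 6.67% and 13.3% of the epithelial sites and 2.50%, 5.00% and 5.00% of the ETS and ETV sites, beside 14.8%, 10.5% and 12.2% of all sites. The median log2 fold change was -0.25, -0.51 and -0.58 over the epithelial sites, and -0.11, -0.32 and -0.24 over the ETS and ETV sites. Restricted to sites within 5 kb of a gene, the epithelial medians were -0.03, -0.41 and -0.05. Sites of 1 gene share their source and the genes were chosen with results known, so the difference between the groups was not tested. The 9 tested FLI1 sites had medians of 1.40, 0.85 and 0.87, with 5 called higher and 2 lower at 24 h. The background scaling put those medians at 0.53, -0.46 and -0.58, so their sign turned at 48 and 72 h.

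**Figure D3:**
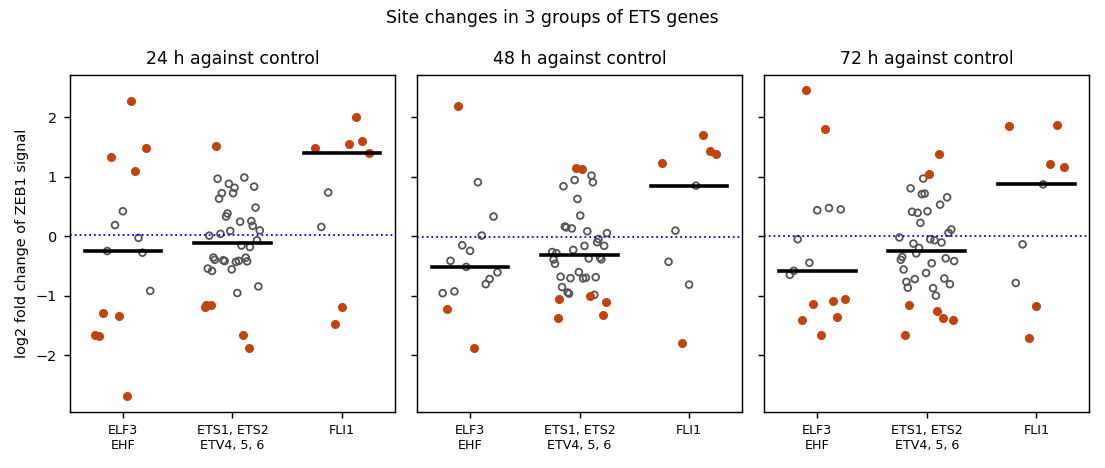
Log2 fold change of ZEB1 signal against untreated cells (TMM scale) at each tested site of the epithelial genes (15 sites of ELF3 and EHF), the ETS and ETV genes (40 sites) and FLI1 (9 sites). Filled points are called sites, open points are not, black lines are medians of each group, and the dotted line is the median of all 46436 tested sites. The epithelial and FLI1 sites spread to both sides at 24 h, and most ETS and ETV sites lie within 1 unit of 0.

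ETS1, the founding member of the family and a mediator of invasion downstream of RAS signalling, had 14 sites, the most of any of these genes. It is known to be transcribed towards lower coordinates, so sites below the gene lie past its 3′ end. The strongest was ETS1 site 1, chr11:128448514-128448935, 10.0 kb past that end. It had 162 and 147 CPM in the control libraries, 68.2 and 67.9 CPM at 24 h, 129.8 and 128 CPM at 48 h and 146 and 160.1 CPM at 72 h. The 24 h libraries stood far below the others, and the 72 h libraries overlapped with control. The log2 fold change was -1.19 at 24 h (interval -1.39 to -0.99; edgeR adjusted p = 2.34e-32), -0.26 at 48 h and -0.02 at 72 h. Its neighbour ETS1 site 2 fell likewise at 24 h, at -1.16, and was at -0.39 at 72 h.

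Within ETS1 some sites fell at several times and others rose at 24 h. ETS1 site 5, chr11:128481275-128481407, had 10.1 and 9.89 CPM in the control libraries, 5.13 and 3.77 CPM at 24 h, 3.86 and 3.78 CPM at 48 h and 3.46 and 2.78 CPM at 72 h, below control in every treated library. Its log2 fold changes of -1.15, -1.38 and -1.66 were all called. The site passed the filter on low counts through control libraries only, so a rise there could hardly have been called. DESeq2 called none of the 3 changes (adjusted p = 0.151, 0.184 and 0.111). An assumed coefficient of variation of 0.2 also lost the 48 h call. The calls were lost without the 24 h library 2 (-0.98), without either 48 h library (-1.38 and -1.34) and without the 72 h library 2 (-1.52). The strong ETS1 site 7, chr11:128496764-128497684, passed at -0.36, -0.68 and -0.86, always under 2-fold. ETS1 site 6 was called at 48 h (-1.06), but not without the control library 1 (-0.91) or the 48 h library 2 (-0.89). ETS1 site 8 was called at 72 h (-1.16), but not without the 72 h library 2 (-0.83).

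ETS1 site 9, chr11:128503677-128503813, had 4.34 and 5.94 CPM in the control libraries, 15.9 and 13.5 CPM at 24 h, 7.72 and 10.6 CPM at 48 h and 8.65 and 9.26 CPM at 72 h. Its highest libraries were those of 24 h, where the log2 fold change was 1.52, or 0.65 with the background scaling. The site passed the filter on low counts through treated libraries only. ETS1 sites 10 and 11, both inside the gene, also peaked at 24 h, at 0.97 and 0.63. The background scaling put these at 0.09, which did not pass the test, and -0.25. ETS1 site 11, chr11:128522331-128522941, reached 135 CPM at 24 h, against 87.1 CPM in control, and was at 80.05 CPM at 72 h. ETS1 site 3, which touches the 3′ end, stayed within 2-fold, at -0.54, -0.46 and -0.35, and fell at each time. Of the remaining ETS1 sites, site 4 was among the strong ones, with 98.1 CPM in control, and fell at 48 h (-0.28) and 72 h (-0.56). ETS1 sites 12 and 14 passed no test against control, and site 13 rose at 24 h (0.73), to 9.99 CPM, against 6.01 CPM in control, but lay at -0.15 with the background scaling.

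ETS2, a close relative of ETS1 and another target of ERK phosphorylation, had no site called lower at any time. ETS2 site 8, chr21:38815034-38815349, inside the gene, had 23.2 and 21.4 CPM in the control libraries, 37.97 and 40.95 CPM at 24 h, 52.5 and 45.3 CPM at 48 h and 51.1 and 40.7 CPM at 72 h. All treated libraries lay above the controls. Log2 fold changes were 0.82, 1.13 and 1.04, called at 48 and 72 h. The 72 h value was 0.98 without the control library 2 and 0.87 without the 72 h library 1. With the background scaling the sign turned at all 3 times, to -0.06, -0.19 and -0.42.

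Around the ETS2 start, neighbouring sites differed. ETS2 site 5, which covers the CACCTG of the promoter printed above, had 13.03 and 14.2 CPM in the control libraries, 12.8 and 16.2 CPM at 24 h, 24.7 and 17.4 CPM at 48 h and 22.5 and 22.2 CPM at 72 h. It rose at 48 h (0.63) and 72 h (0.72), under 2-fold, and did not pass the test at 24 h (0.09). The background scaling put it at -0.79, -0.69 and -0.74. ETS2 site 6, which covers 270 bases of the other annotated ETS2 promoter and no CACCTG of it, fell at all 3 times, at -0.55, -0.60 and -0.62. ETS2 site 4, 0.4 kb before the start, passed the filter on low counts through treated libraries only and was called higher at 48 h (1.16). That call was lost without either control library (1.06 and 1.24) or without the 48 h library 2 (0.87), and the background scaling put it at -0.15. The strongest ETS2 site, ETS2 site 12, 15.0 kb past the gene's end, had 50.4 and 59.7 CPM in the control libraries, 70.8 and 58.7 CPM at 24 h, 57.2 and 58.9 CPM at 48 h and 54.5 and 49.98 CPM at 72 h. Its libraries overlapped between most conditions and no change passed the test. Farther from the start, ETS2 site 3, 6.6 kb before it, rose at each time (0.38, 0.94 and 0.71), while ETS2 site 11, 6.8 kb past the gene's end, fell at each time (-0.41, -0.70 and -0.87). The background scaling put ETS2 site 3 at -0.50, -0.37 and -0.75.

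**Figure D4:**
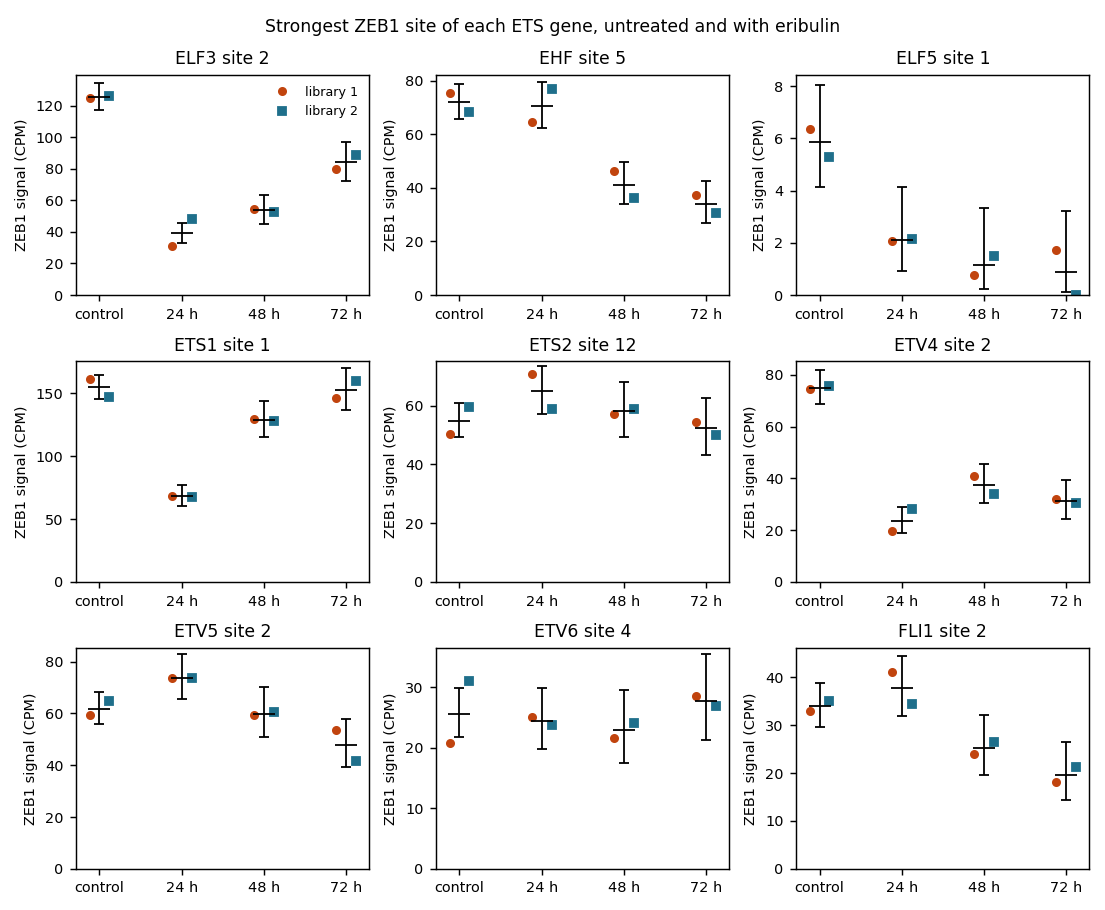
ZEB1 signal (CPM, linear axes from 0) at the site with the highest mean signal of each of the 9 genes, in control and after 24, 48 and 72 h of eribulin. Points are the 2 libraries of a condition, horizontal bars the pooled value and vertical bars its exact 95% interval. The 24 h libraries are the lowest at ELF3 site 2, ETS1 site 1 and ETV4 site 2, while ETS2 site 12 and ETV6 site 4 stay near control at every time.

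ETV4 had the largest fall of the ETV genes, and it fell at the same time as ELF3. ETV4 encodes a PEA3 group activator linked to invasion, and is known to be transcribed towards lower coordinates. ETV4 site 2, chr17:43530292-43531119, lies inside ETV4 and also inside the annotated span of DHX8, an RNA helicase gene, which also holds ETV4 sites 1 and 3. It cannot be assigned to ETV4 alone. It had 74.4 and 75.8 CPM in the control libraries, 19.5 and 28.02 CPM at 24 h, 40.9 and 33.98 CPM at 48 h and 32.02 and 30.5 CPM at 72 h. All treated libraries lay far below both controls. The log2 fold change was -1.66 at 24 h (interval -2.01 to -1.34; edgeR adjusted p = 6.39e-26), -1.004 at 48 h and -1.26 at 72 h. The 48 h value sat on the 2-fold limit and lay between -0.85 and -0.99 without the control library 2, the 24 h library 2, the 48 h library 2 or either 72 h library.

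ETV4 site 6, chr17:43556369-43556536, 10.1 kb beyond the upper end of ETV4, had 12.2 and 11.2 CPM in the control libraries, 3.59 and 2.69 CPM at 24 h, 4.63 and 9.82 CPM at 48 h and 2.60 and 6.48 CPM at 72 h. All treated libraries lay below both controls. The site needed the control libraries to pass the filter on low counts. It changed by -1.87 (log2) at 24 h and -1.38 at 72 h, the 72 h value being -0.85 without the 72 h library 1 and -2.15 without the 72 h library 2. ETV4 site 5, which spans the upper end of the gene, passed the test at 48 h only (-0.98). ETV4 site 3 was low in control, with 3.55 CPM, and passed the filter on low counts through treated libraries only. It was called higher at 72 h (1.39). That call was lost without the control library 1 (1.11) or the 72 h library 2 (1.12), and the background scaling put it at -0.06.

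ETV5, the other PEA3 group gene described, had 2 sites and no call. ETV5 site 2, chr3:186109014-186109519, spans the upper end of the gene, where its transcription is known to begin, and held 77.9% of the gene's site counts in control. It had 59.4 and 64.6 CPM in the control libraries, 73.9 and 73.8 CPM at 24 h, 59.5 and 60.4 CPM at 48 h and 53.6 and 41.6 CPM at 72 h. The 24 h libraries lay above both controls and those of 72 h below them. The changes were small, at 0.26 and -0.37, and both passed the test, while the 48 h value of -0.04 did not. The background scaling put the 24 h value at -0.62.

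ETV6, the family's repressor and a frequent fusion partner in leukaemia, had 7 sites along its long gene. ETV6 site 5, chr12:11798850-11799197, fell at each time, with 33.02 and 31 CPM in the control libraries, 16.4 and 19.4 CPM at 24 h, 13.1 and 16.6 CPM at 48 h and 7.79 and 16.7 CPM at 72 h. Treated and control libraries did not overlap. The log2 fold changes were -0.84, -1.10 and -1.40. The 48 h value was -0.93 without the 48 h library 1, and the 72 h value -0.94 without the 72 h library 1 and -2.03 without the 72 h library 2. ETV6 site 4, only 2.9 kb before it and the strongest of the gene, had 20.9 and 31 CPM in the control libraries, 25.1 and 23.7 CPM at 24 h, 21.6 and 24.2 CPM at 48 h and 28.6 and 26.8 CPM at 72 h, and no change there passed the test. ETV6 site 3 was called lower at 48 h (-1.31), but not without the control library 2 (-0.74) or the 48 h library 2 (-0.87). ETV6 site 1, 0.6 kb before the start, rose at 72 h (0.65), and the background scaling put it at -0.81.

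FLI1, which lies next to ETS1 on chromosome 11, had the most sites called higher. FLI1 is known to be transcribed towards higher coordinates. Of its 9 tested sites, sites 1, 6, 7, 8 and 10 were called higher at 24 h, sites 1, 7, 8 and 10 at 48 and 72 h, beside 14.8%, 10.5% and 12.2% of all sites. Site 4 was called lower at each time and site 5 at 24 and 72 h. Sites 7 and 8 passed the filter on low counts through treated libraries only. A fall there could hardly have been called. FLI1 site 8, chr11:128804607-128804810, had 3.19 and 6.27 CPM in the control libraries, 14.4 and 14.01 CPM at 24 h, 10.04 and 15.1 CPM at 48 h and 19.04 and 14.8 CPM at 72 h. All treated libraries lay above both controls. The log2 fold changes were 1.60, 1.43 and 1.86, of which the 48 h call was lost without the 48 h library 2 (1.13). On the background scaling they were 0.73, 0.13 and 0.41, and none was called. FLI1 site 7, chr11:128759633-128759838, had 3.77 and 2.64 CPM in the control libraries, 12.8 and 13.5 CPM at 24 h, 10.8 and 10.6 CPM at 48 h and 8.65 and 6.48 CPM at 72 h. It was highest at 24 h, at 2.00, with 1.70 at 48 h and 1.21 at 72 h. The 72 h call was lost without the control library 2 (0.99) or either 72 h library (0.99 and 1.40).

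FLI1 site 10, chr11:128828390-128828740, 15.3 kb past the gene's end and chosen after its values were seen, was the strongest of the FLI1 sites called higher. It had 11.3 and 12.5 CPM in the control libraries, 33.4 and 29.6 CPM at 24 h, 30.9 and 30.96 CPM at 48 h and 29.4 and 24.1 CPM at 72 h. All treated libraries stood above both controls, with log2 fold changes of 1.40, 1.38 and 1.17. The background scaling put them at 0.53, 0.06 and -0.29. On that scale the rises of FLI1 sites 1 and 7 also lost their sign, site 1 at 48 h (-0.07) and site 7 at 72 h (-0.23). FLI1 site 1 was called at 48 h at 1.23, but not without the control library 1 (0.96) or either 48 h library (1.35 and 1.13).

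FLI1 sites 4 and 5, 1.1 kb apart, fell. FLI1 site 4, chr11:128715696-128715976, had 27.2 and 28.4 CPM in the control libraries, 11.8 and 8.08 CPM at 24 h, 6.18 and 9.82 CPM at 48 h and 9.52 and 7.40 CPM at 72 h. Treated and control libraries were far apart at each time, with log2 fold changes of -1.47, -1.78 (interval -2.52 to -1.14; edgeR adjusted p = 5.4e-09) and -1.70. FLI1 site 5 was at -1.19, -0.81 and -1.17, and the 72 h value was -0.91 without the 72 h library 1. FLI1 site 3, 0.7 kb from site 4, rose at 24 h by 0.74, but was at -0.14 on the background scaling. The strongest FLI1 site, FLI1 site 2, chr11:128709491-128709781, had 33.02 and 34.96 CPM in the control libraries, 41.05 and 34.5 CPM at 24 h, 23.9 and 26.4 CPM at 48 h and 18.2 and 21.3 CPM at 72 h. It fell at 72 h, at -0.78, where both libraries lay below the controls. FLI1 site 9, the nearest to a gene end and below the filter, had 14 pooled counts at 24 h, 9 at 48 h and 7 at 72 h, against 19 in control. Its ratios of pooled CPM to control had intervals of 0.583 to 2.64, 0.467 to 2.72 and 0.380 to 2.65, so no difference was detectable with these few counts.

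Calls were also counted by site strength, with no test. Of the 39 sites above the median mean CPM of all tested sites (13.0), 8 were called lower and 2 higher at 24 h, and of the 25 below it, 4 were called lower and 8 higher. Over all sites the shares were 12.8% lower and 8.97% higher above that level, and 14.3% and 20.7% below it. At 72 h the stronger sites had 9 lower and 2 higher calls, and the weaker sites 4 and 6, beside 6.68% and 9.05% of all stronger sites and 10.4% and 15.4% of all weaker ones. Among the 68 sites, the highest pooled CPM was that of control at 31, of 24 h at 23, of 48 h at 5 and of 72 h at 9. For FLI1 alone, 6 of 10 were highest at 24 h and 2 in control, and for the epithelial genes 10 of 16 were highest in control. Counts of this kind were not made over all sites, so they cannot be read as traits of these genes.

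The deposited peak lists, 1 per condition, were also read at these sites. The counted sites are consensus peaks, and each of the 68 had a peak in at least 1 of these lists. The lists are therefore no second line of support for the rises and falls. The control list had a peak at 59 of the 68 sites (86.8%), the 24 h list at 47 (69.1%), the 48 h list at 32 (47.1%) and the 72 h list at 31 (45.6%). Of all sites, these lists had a peak at 86.6%, 61.3%, 39.4% and 32.1%. Counts in sites were also fewer at later times, and the part of this in the shorter lists was not tested. A peak was in all 4 lists at 24 of the sites, in control alone at 17, and in treated lists but not in control at 9. These combinations were not counted over all sites, so they cannot be read as traits of these genes. The 4 lists kept a peak at ELF3 site 2, where the authors' highest fold enrichment over their background was 9.15 at 24 h, 10.6 at 48 h and 10.4 at 72 h, against 19.4 in control. At EHF site 2 and FLI1 site 4 the control list alone held a peak, at 10.9 and 6.38. At EHF sites 3, 4 and 7 the 24 h list alone held one.

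Changes between successive exposure times were fewer. From 24 to 48 h, 5 of the 64 sites were called lower and 1 higher, beside 7.03% and 9.95% of all sites. From 48 to 72 h none was called lower and 2 higher by edgeR, beside 1.40% and 0.965%. For falls between 48 and 72 h, 1 site had an unadjusted p under 0.05, and DESeq2 called none. Without the fold minimum, 9 sites fell and 10 rose between 24 and 48 h, beside 14.3% and 16.8% of all sites, and 0 fell and 3 rose between 48 and 72 h, beside 2.41% and 2.82%.

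Summed over all sites of a gene, ELF3 and ETV4 alone among these genes were called, both lower at 24 h. ELF3 sums were 86.2 and 93.2 CPM at 24 h, against 195 and 198 CPM in control, a log2 fold change of -1.13 (edgeR adjusted p = 6.67e-56). ETV4 sums were 47.5 and 45.2 CPM at 24 h, against 96.4 and 96.8 CPM in control, a log2 fold change of -1.06 (edgeR adjusted p = 4.36e-25). The ETV4 sum includes ETV4 sites 1, 2 and 3, which lie inside DHX8. Site 2 alone held 58.5% of the ETV4 counts in control, so the sum cannot be assigned to ETV4 alone. Among all 16118 genes tested, 4.30% were called lower and 7.20% higher at 24 h. The later sums of ELF3 were -0.71 and -0.55, those of ETV4 -0.66 and -0.63. EHF sums fell against control at each time, at -0.16, -0.68 and -0.84, and ETS1 sums lay at -0.26, -0.34 and -0.34. The EHF step from 48 to 72 h (-0.16) did not pass the test (edgeR adjusted p = 0.461). The ETS2 sums of 0.01, 0.16 and 0.01 and the FLI1 sums of 0.23, -0.004 and -0.14 stayed near 0, although single sites of both were called. Without the fold minimum, 4 of 8 gene sums fell and 1 rose at 24 h, beside 31.6% and 31.1% of all genes. At 48 h 5 fell and 1 rose, beside 20.6% and 20.1%, and at 72 h 6 fell and 0 rose, beside 20.8% and 21.3%. At 48 h 1.11% of all genes were called lower and 5.52% higher, and at 72 h 1.48% and 5.52%. At those times no gene sum of the 8 was called by edgeR or DESeq2, though 5 were lower and 1 higher at an unadjusted p under 0.05 at 48 h, and 6 were lower at 72 h. With the background scaling, which lowers all values of a time by nearly the same amount, all 8 gene sums were below control at each time.

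The rest of the ETS family was read from a list of 19 further genes, chosen from textbook knowledge. ETV3L and SPIC had no site within 20 kb, SPIB was below the filter and 16 were tested. ETV1, the third PEA3 group gene, was the one called at 2-fold, at 1.11 at 24 h, and 0.25 with the background scaling. Its sums were 66.05 and 64.4 CPM at 24 h, against 30.3 and 30.2 CPM in control. At 24 h ETV1 was thus higher while the ETV4 sum, which includes sites inside DHX8, was lower. Of the 16, 4 fell and 4 rose at 24 h, 5 fell and 3 rose at 48 h, and 5 fell and 2 rose at 72 h. Among the 8 tested members, ELF3 and ETV4 had the closest courses of summed signal, at a Euclidean distance of 0.12 over the log2 fold changes of the 3 times. The next family gene to each of them was ERF, at 0.27 from ELF3 and 0.24 from ETV4. ETS1 lay nearest to ETV6 (0.24), ETV6 nearest to ERG (0.20) and FLI1 nearest to ETS2 (0.31).

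**Figure D5:**
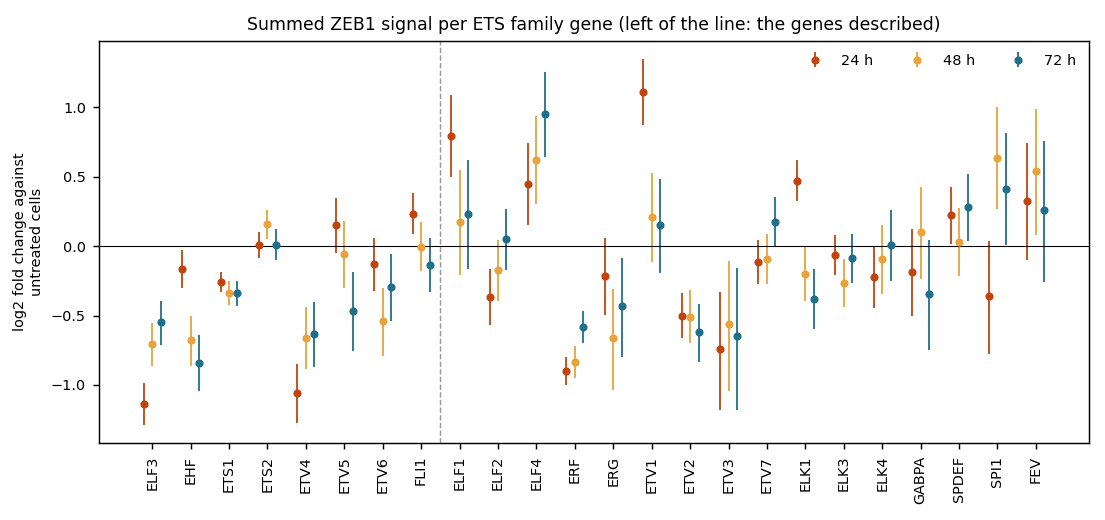
Log2 fold change of ZEB1 signal summed over all sites of a gene (TMM scale) for the ETS family genes tested, after 24, 48 and 72 h of eribulin against untreated cells, with exact 95% intervals of the pooled counts as bars. Genes left of the dashed line are the 8 tested members and those right of it the 16 other family genes. ELF3 and ETV4 lie below -1 at 24 h and ETV1 above 1.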

How the data were processed

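The deposited table holds whole-number counts of 8 ZEB1 libraries over 52981 sites, without normalization. The labels leave open if these were reads or fragments. The deposited peak lists, 1 per condition, give a fold enrichment (a ratio) and -log10 p and q values of the peak caller, as the narrowPeak layout orders them. The submitters' processing notes name the aligner Bowtie2 2.2.6, the peak caller MACS2 2.1.1, featureCounts, cutadapt 2.4, bedtools 2.30.0, deepTools, Picard and the hg38 build. The labels describe a CUT&RUN kit and also Tn5 fragmentation, and this was not resolved. Peak names carry replicate 1.

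Counts were fitted for all sites with edgeR 4.0.16 (R 4.3.3): TMM factors, filterByExpr, robust quasi-likelihood F tests with 1 coefficient per condition, and Benjamini-Hochberg adjustment over the 46436 sites kept. A call needed an adjusted p under 0.05 and a 2-fold change. Counts summed per gene within 20 kb were fitted likewise over 16118 genes. The procedure was tested on simulated data. Pooled CPM have exact binomial 95% intervals. The background level of each peak list was recovered from its fold and p columns as the lowest expected coverage. Alternatives were DESeq2 1.42.0, other scalings, filters, windows and call rules, an assumed coefficient of variation of 0.2, and leaving out each library.

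Named sites are each gene's strongest, the nearest to its start (or, with no promoter entry, to a gene end) and its largest called change per time. Other sites given with values were chosen after their values were seen. The members and lists were chosen with earlier results of these data known.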

Additional observations from a re-analysis of the deposited data

Results flagged for a closer look

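At 8 sites the change after 1 exposure time differed from that after the time before it, by the edgeR test of the 2 times against each other, which compares libraries and not conditions. Between 48 and 24 h the log2 difference was -1.37 at EHF site 3, -1.16 at EHF site 7, -1.69 at ETS1 site 13, -1.22 at ETV6 site 2 and -1.80 at ETV6 site 3, so signal was lower at 48 h than at 24 h at these sites inside EHF, ETS1 and ETV6. ETV4 site 4, near the upper end of ETV4, was higher at 48 h by 1.27. Between 72 and 48 h, ETS1 site 14 was higher at 72 h by 1.097 and ETV6 site 1, 0.6 kb before the ETV6 start, by 1.01. DESeq2 called none of the 8. The pooled CPM of ETV6 site 3 was 3.44 at 48 h, against 12.1 at 24 h. With an assumed coefficient of variation of 0.2, 2 of the 5 falls between 24 and 48 h and none of the 3 rises were called. Without the 48 h library 1, EHF site 3 was at -0.88, ETS1 site 14 at 0.78 and ETV6 site 1 at 0.71. Calls were also lost without the 48 h library 2 at ETS1 site 13 (-1.32), ETV6 site 3 (-1.34), ETS1 site 14 (1.48) and ETV6 site 1 (1.37), and without the 24 h library 2 at EHF site 3 (-1.15) and ETV4 site 4 (1.14). ETV6 site 2 lost its call without either 24 or 48 h library (-1.24 to -1.17). ETS1 site 14 and ETV6 site 1 also lost theirs without either 72 h library (0.89 to 1.103), and ETV6 site 1 without either control library (1.00 and 1.00) or the 24 h library 2 (1.00).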

How the results depend on the processing

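The scaling changed the counts most. With the background scaling, lower calls numbered 30 at 24 h, 48 at 48 h and 48 at 72 h, against 12, 8 and 13 on the TMM scale, and higher calls 2, 0 and 1, against 10, 7 and 8. Between times it gave 16 lower and 0 higher from 24 to 48 h, against 5 and 1, and 0 higher from 48 to 72 h, against 2. Gene sums called lower were then 4, 8 and 8, against 2, 0 and 0. No share of all sites or genes called on this scaling stands beside these counts. The median of all tested sites was itself at -0.86, -1.32 and -1.46 on it, so the counts cannot be read as a trait of these genes. The medians moved to -1.12, -1.83 and -2.04 for the epithelial sites and -0.99, -1.63 and -1.70 for the ETS and ETV sites. At named sites the sign turned under this scaling for 24 values, of which 17 had passed the test in either fit. These 17 were EHF site 1 at 72 h (-1.02), ETS2 site 4 at 48 h (-0.15), ETS2 site 5 at the 3 times (-0.79, -0.69 and -0.74), ETS2 site 8 likewise (-0.062, -0.19 and -0.42), ETS2 site 12 at 24 and 48 h (-0.63 and -1.23), ETV4 site 3 at 72 h (-0.059), ETV5 site 2 at 24 h (-0.62), ETV6 site 1 at 24 and 72 h (-0.70 and -0.81), ETV6 site 4 at 72 h (-1.35), FLI1 site 2 at 24 h (-0.72) and FLI1 site 7 at 72 h (-0.23). The others, which passed in neither, were EHF site 1 at 24 h (-0.45), EHF site 3 at 48 h (-0.38), ETS1 site 9 at 48 and 72 h (-0.47 and -0.65), ETS2 site 4 at 72 h (-0.48), ETV4 site 3 at 48 h (-0.28) and ETV6 site 3 at 24 h (-0.39). Leaving out 1 library turned 16 further signs, none of which had passed. The ranges were -0.032 to 0.78, -0.88 to 0.21 and -0.16 to 0.84 at EHF site 1 (24, 48 and 72 h), -0.17 to 0.11 at EHF site 5 (24 h), -0.090 to 0.050 at ETS1 site 1 (72 h), -0.10 to 0.26 at ETS2 site 5 (24 h), -0.036 to 0.20 and -0.20 to 0.043 at ETS2 site 12 (48 and 72 h), -0.10 to 0.013 at ETV5 site 2 (48 h), -0.0013 to 0.34 at ETV6 site 1 and -0.0013 to 1.02 at ETV6 site 3 (24 h), and -0.37 to 0.20, -0.43 to 0.13 and -0.17 to 0.40 at ETV6 site 4 (24, 48 and 72 h). Sites within 5 kb gave 7 lower at 24 h, 4 higher at 48 h and 5 higher at 72 h, 1 gene sum lower at 48 h, epithelial medians of -0.026, -0.41 and -0.049 and an ETS and ETV median of 0.011 at 24 h. Sites inside the genes gave 5 lower at 24 h, 3 higher at 48 h, 5 higher at 72 h and 1 higher from 48 to 72 h. With no fold minimum, 21 fell and 20 rose at 24 h, 23 fell and 11 rose at 48 h, 24 fell at 72 h, and 9 fell and 10 rose from 24 to 48 h. DESeq2 called 5 higher at 72 h and 0 in either direction from 24 to 48 h or from 48 to 72 h. An assumed coefficient of variation of 0.2 left 2 lower and 0 higher from 24 to 48 h and 0 from 48 to 72 h. DESeq2 size factors left 1 higher from 48 to 72 h, and no filter left 0, with 1 gene sum lower at both 48 and 72 h. Leaving out 1 library gave 5 to 10 lower at 48 h, 5 to 8 higher at 72 h, 3 to 5 lower and 1 to 3 higher from 24 to 48 h, 0 to 2 higher from 48 to 72 h, and 0 to 1 gene sums lower at 48 and at 72 h. The cause of these differences was not tested. Of the lower calls, 11 of 12 at 24 h, 3 of 8 at 48 h and 4 of 13 at 72 h were kept whichever library was left out, and of the higher calls 8 of 10, 4 of 7 and 4 of 8. Over all alternatives, 210 counts and medians stayed within 1.5 times or within the spread between libraries and 70 did not. Of the values at named sites, 1016 kept their direction and side of the threshold, 40 turned sign, 52 lost a call and 26 gained one. Peak counts did not move by over 1.5 times with a q under 0.001 or with a stricter overlap.

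Same-numbered libraries did not deviate together (correlations of -0.00 to 0.01), so the numbers do not pair them. A replicate block left 12 lower and 10 higher at 24 h, 8 lower and 7 higher at 48 h, and 13 lower with 8 higher at 72 h.

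Few counts limit the weak sites: at 72 h the libraries held 1207987 and 1130706 counts in sites, against 3561455 and 3146228 in control. These are totals within sites, not of whole libraries. The background level of the peak lists was 108%, 100.8% and 95.2% of control at 24, 48 and 72 h.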
